A study of Mus musculus with 2 samples.

Results

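The genes examined here carry the insulin, insulin-like growth factor and mTOR signal: the ligand Igf1, the receptors Igf1r and Insr, the adaptor Irs1, the kinase Akt2, the transcription factors Foxo1 and Foxo3, the kinase Mtor and its partner Rptor. These 9 genes were chosen by name as nutrient signalling genes tied to ageing, and all 9 of 9 were found among the 21471 genes listed for both ages. The values come from nuclei of 1 adult heart (9 weeks) and 1 aged heart (78 weeks) of female F1 mice with a C57BL/6J (BL6) mother and a CAST/EiJ (CAST) father. The breed label of both hearts names the Xist mutant cross (C57BL/6J∆Xist-/+ × CAST/EiJ), whereas the genotype label names C57BL/6JxCAST/EiJ and the study's methods describe wild-type females, so the wild-type genotype was used. Nuclei were sorted on a DNA dye and sequenced with a droplet method, and only nuclei with an active BL6 X chromosome entered the counts, pooled over all cell types of a heart.

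Insulin and IGF1 bind related receptor tyrosine kinases, INSR and IGF1R. The active receptors phosphorylate adaptors such as IRS1, which recruit PI3-kinase and lead to activation of AKT. AKT keeps the FOXO factors out of the nucleus and relieves the block on mTORC1, the complex of mTOR with raptor (Rptor) that promotes protein synthesis and restrains autophagy. In the heart this pathway is known for its roles in physiological growth and glucose use, and lower activity of it extends lifespan in several animals.

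A read counts here when it covers a position at which BL6 and CAST differ (SNP), so each read belongs to a parental allele. The adult library held 9747535 such reads and the aged library 5805807, and the 9 genes together held 25449 and 15372 of them. Levels are given as reads per 1000000 SNP-overlapping reads of the library (RPM), and the allelic ratio is the BL6 share of the reads of a gene. Intervals are exact 95% intervals that treat each read as independent and cover the counting error of reads alone. Several reads may stem from 1 molecule, and the intervals would then be too narrow. With 1 library per age the variation between animals is unmeasured, and no test between ages was made. A count of genes past 1.5-fold is therefore a description by size, read beside the share of all genes past the same fold. The ratio of aged to adult RPM had a median of 1.17 (0.22 on the log2 scale) over the 12736 genes with at least 20 reads at each age, so the ratio of each signalling gene over both alleles is also given relative to that median gene. All other ratios below are of RPM unless stated otherwise. Reads of the X chromosome apart from Xist and Tsix were 97.1% and 96.6% BL6, which fits the selection of nuclei. The 100 genes with most reads took 23.7% of the adult and 19.7% of the aged reads. Because nuclei of all types are pooled, fewer nuclei of a type and less RNA per nucleus cannot be told apart.

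Marker genes of the cell types differed between the libraries beside every ratio that follows. Cardiomyocyte markers summed to 28788 RPM at 9 weeks and 27125 RPM at 78 weeks, a ratio of 0.942, or 0.809 relative to the median gene. In RPM 7 of 9 markers were higher, counted against a ratio of 1 here and below. Of these, Ryr2 (the most abundant), Myh6 and Myl3 with 1.15 and Pln with 1.04 lay below the median gene at 1.17. Tek with 1.14 and Cdh5 with 1.12 among the endothelial markers did so too. Without Ttn, which had a ratio of 0.580, the sum of the cardiomyocyte markers was higher in the aged library, with 16939 and 20254 RPM and a ratio of 1.20. Without Ryr2 the ratio of the sum was 0.794 (0.787 to 0.801). With any 1 of the other cardiomyocyte markers left out it was 0.905 to 0.941. Fibroblast markers had a ratio of 1.59 (6 of 8 higher, Dcn 1.68), endothelial markers 1.56 (6 of 8 higher, Tek 1.14), macrophage markers 1.64 (8 of 8 higher, F13a1 1.62), pericyte markers 1.86 (4 of 5 listed markers higher, Pdgfrb 2.04) and smooth muscle markers 3.00 (4 of 4 higher, Myh11 3.32). Epicardial markers had a ratio of 0.245 (0 of 3 higher, Wt1 0.302) and lymphocyte markers 0.474 (4 of 7 higher, Skap1 0.293), from 230 and 65 reads, with Cd3e and Cd8a at 0 in the aged library. The remaining lymphocyte markers without Skap1 had 58 and 35 reads and a ratio of 1.01 (0.646 to 1.57), and the remaining epicardial markers without Wt1 had 125 and 7 reads and a ratio of 0.0940. Adipocyte markers had a ratio of 0.892 (2 of 4 higher, Cidec 0.798) and Schwann cell markers 1.26 (2 of 4 higher, Cdh19 1.27), or 0.929 (0.579 to 1.47) without Cdh19. The part of these differences in the values of the signalling genes was not tested.

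**Figure D1:**
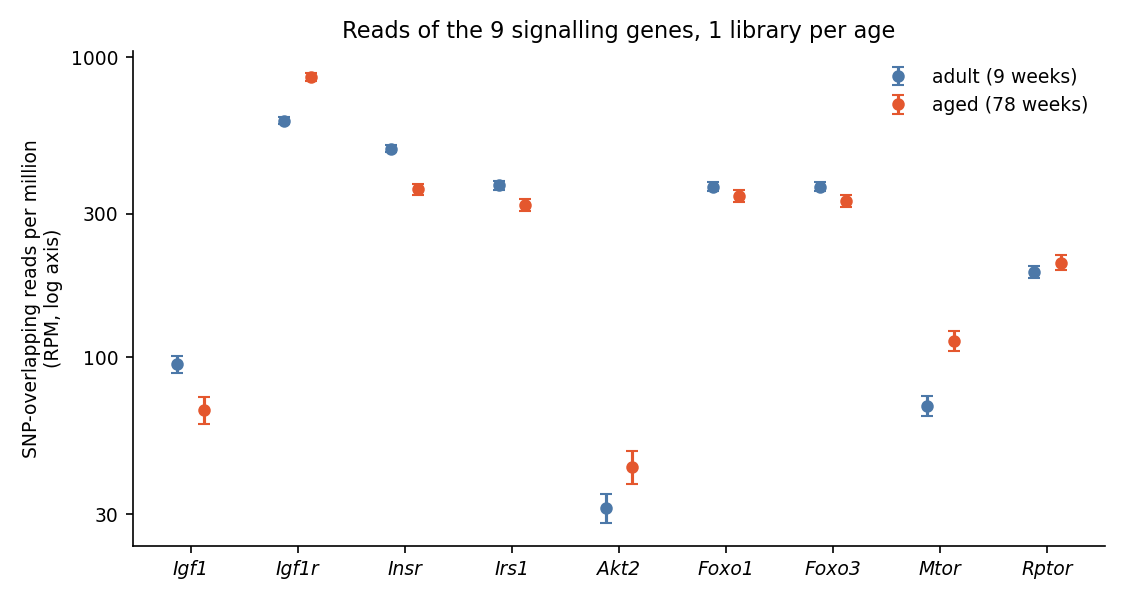
Level of each signalling gene in RPM (log axis) in the adult (9 weeks, blue) and aged (78 weeks, red) library, with exact 95% Poisson intervals of the read counts. Igf1r lies highest at both ages and higher in the aged library (614 and 859 RPM), whereas Insr lies lower in the aged library (495 and 362 RPM).

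The ligand Igf1 and the insulin receptor Insr were lower in the aged library, whereas Igf1r was higher. Igf1 encodes the growth factor itself and lies on the plus strand of chromosome 10 of GRCm38 (87858265 to 87937047), a protein-coding locus of 78.8 kb of which 12.6% is exonic in GENCODE M21. It had 925 reads at 9 weeks and 386 at 78 weeks, that is 94.9 RPM (88.9 to 101) and 66.5 RPM (60.0 to 73.5). The intervals were separate, with the aged library lower at a ratio of 0.701 (0.621 to 0.790), or 0.601 relative to the median gene. Igf2, the other IGF ligand, had 2 and 4 reads, and the insulin genes Ins1 and Ins2 are not listed at either age.

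Igf1r, the receptor of IGF1, lies on the plus strand of chromosome 7 (67951833 to 68233668), spans 282 kb and is 5.96% exonic. It had the most reads of the signalling genes, 5989 at 9 weeks and 4989 at 78 weeks, or 614 RPM (599 to 630) and 859 RPM (836 to 883). The aged level was higher by a ratio of 1.40 (1.35 to 1.45), and by 1.20 relative to the median gene. Insr, the insulin receptor, lies on the minus strand of chromosome 8 (3150922 to 3279649), spans 129 kb and is 10.6% exonic. Its 4823 adult and 2102 aged reads gave 495 RPM (481 to 509) and 362 RPM (347 to 378). Here the aged library was lower, with a ratio of 0.732 (0.695 to 0.770) and 0.628 relative to the median gene.

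The receptors can also be set against each other inside a library, which needs no scaling between libraries. This comparison of pairs was chosen after the values of the single genes had been seen. For each Insr read there were 1.24 Igf1r reads at 9 weeks and 2.37 at 78 weeks, a difference of 1.91-fold (1.79 to 2.04). It was present on both alleles, with 1.35 and 2.70 for BL6 reads and 1.12 and 2.03 for CAST reads. For each Igf1 read there were 6.47 Igf1r reads at 9 weeks and 12.9 at 78 weeks, a difference of 1.996-fold (1.76 to 2.27). The read numbers of 2 genes depend on their lengths and SNPs, so these ratios can be compared between the ages but do not say which receptor is more abundant.

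Irs1 encodes the adaptor that couples both receptors to PI3-kinase. It lies on the minus strand of chromosome 1 (82233105 to 82291439), spans 58.3 kb and is 15.7% exonic. With 3644 and 1864 reads it stood at 374 RPM (362 to 386) at 9 weeks and 321 RPM (307 to 336) at 78 weeks. The aged level was lower at a ratio of 0.859 (0.812 to 0.908), or 0.737 relative to the median gene. Akt2, the AKT isoform best known for insulin-stimulated glucose uptake, lies on the plus strand of chromosome 7 (27591557 to 27639453), spans 47.9 kb and is 12.0% exonic. It had the fewest reads of the signalling genes, 306 and 249, and its level was 31.4 RPM (28.0 to 35.1) at 9 weeks and 42.9 RPM (37.7 to 48.6) at 78 weeks. The ratio was 1.37 (1.15 to 1.62), and relative to the median gene it was 1.17, with an interval of 0.988 to 1.39 that holds 1.

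The FoxO factors, which switch on genes of atrophy, stress resistance and fasting metabolism when AKT is inactive, each had a ratio slightly below 1. Foxo1 lies on the plus strand of chromosome 3 (52268337 to 52350109), spans 81.8 kb and is 6.79% exonic. Its 3608 and 2003 reads gave 370.1 RPM (358 to 382) at 9 weeks and 345 RPM (330 to 360) at 78 weeks, with a ratio of 0.932 (0.882 to 0.985) and 0.800 relative to the median gene. Foxo3 lies on the minus strand of chromosome 10 (42181845 to 42276746), spans 94.9 kb and is 7.96% exonic. It had 3611 and 1925 reads, 370.5 RPM (358 to 383) and 332 RPM (317 to 347), with a ratio of 0.895 (0.846 to 0.946) and 0.768 relative to the median gene. For each Foxo3 read there were 0.999 Foxo1 reads at 9 weeks and 1.04 at 78 weeks, a difference of 1.04-fold (0.963 to 1.13). In the reads of both alleles together the proportion was thus indistinguishable between the ages within counting error, with differences beyond 1.13-fold outside the interval. By allele the proportion moved in opposite directions, with 0.971 at 9 weeks and 0.846 at 78 weeks for BL6 reads and 1.03 and 1.36 for CAST reads.

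Mtor encodes the kinase of both mTOR complexes and lies on the plus strand of chromosome 4 (148448582 to 148557685), spans 109 kb and is 9.27% exonic. Its read numbers were almost the same, 672 and 657, in libraries of unlike depth, which gave 68.9 RPM (63.8 to 74.4) at 9 weeks and 113 RPM (105 to 122) at 78 weeks. The ratio of 1.64 (1.47 to 1.83) was the largest among the signalling genes, and relative to the median gene it was 1.41 (1.26 to 1.57). Rptor encodes raptor, which brings substrates to mTORC1. It lies on the plus strand of chromosome 11 (119602905 to 119899591), spans 297 kb and is 4.54% exonic. It had 1871 and 1197 reads, 192 RPM (183 to 201) and 206 RPM (195 to 218), and a ratio of 1.07 (0.998 to 1.16) whose interval holds 1. Relative to the median gene the direction turned, with 0.922 (0.857 to 0.992). For each Rptor read there were 0.359 Mtor reads at 9 weeks and 0.549 at 78 weeks, a difference of 1.53-fold (1.34 to 1.74).

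The windows of 250 bases before the RefSeq start of Mtor and Rptor are shown because these partners of mTORC1 differed in their ratios. The sequences are from RefSeq on GRCm38.p6, read 5′ to 3′ on the plus strand, with matches to the motifs below in capitals. The Mtor window is chr4:148448332-148448581 and the Rptor window is chr11:119602655-119602904.
Mtor: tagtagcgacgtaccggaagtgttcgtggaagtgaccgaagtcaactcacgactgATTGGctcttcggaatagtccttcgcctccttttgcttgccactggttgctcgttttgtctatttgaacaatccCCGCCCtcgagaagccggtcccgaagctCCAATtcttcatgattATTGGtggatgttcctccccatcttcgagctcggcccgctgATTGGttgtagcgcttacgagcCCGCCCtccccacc
Rptor: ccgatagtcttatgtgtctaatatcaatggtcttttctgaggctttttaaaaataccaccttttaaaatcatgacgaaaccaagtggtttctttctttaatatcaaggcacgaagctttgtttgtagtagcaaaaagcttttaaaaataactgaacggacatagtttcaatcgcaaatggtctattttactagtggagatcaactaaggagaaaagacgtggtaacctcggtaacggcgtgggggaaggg

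The motifs searched on both strands were the CCAAT box (CCAAT), the GC box (GGGCGG), the E-box (CACGTG) and the FoxO core (GTAAACA), and their letters do not contain each other. The Mtor window held 4 CCAAT boxes and 2 GC boxes, and the Rptor window held none of the motifs searched. Among the 32851 RefSeq windows of this length, 33.8% held a CCAAT box, 32.7% a GC box, 6.02% an E-box and 3.17% a FoxO core. The G and C content was 54.4% for Mtor and 37.6% for Rptor, beside a median of 52.4% over all windows. A window was given for 8 of the 9 genes, all except Insr, and none of their 11 windows held a FoxO core. Outside Mtor, CCAAT boxes were found before Foxo1 (3) and Igf1 (1), and GC boxes before Foxo3 (5), Foxo1 (2), Igf1r (2), Irs1 (2) and Akt2 (1 in 1 of 4 windows). The window of Irs1 also held 1 E-box. Such matches are descriptions of letters, and no binding was measured.

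By the fold of 1.5, 1 of the 9 genes, Mtor, was higher at 78 weeks and 0 were lower, whereas 28.0% of all 12736 genes were higher and 11.8% lower by that fold. Relative to the median gene, 0 were higher and 2, Igf1 and Insr, were lower, beside 18.0% and 18.4% of all genes. Among the 7264 genes with at least 100 reads at each age, a depth that all 9 genes reach, 24.1% were higher and 9.99% lower in RPM, and 13.3% and 16.5% relative to the median gene. The 9 genes summed to 2611 RPM at 9 weeks and 2648 RPM at 78 weeks, a ratio of 1.01 (0.994 to 1.03). Their median ratio was -0.10 on the log2 scale, beside 0.22 over all genes.

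Levels of different genes are set here per length of locus, but the number of SNPs in each locus is not known. The libraries were made with a kit for transcript ends, and whether their reads scale with locus length was not tested. The orders below thus describe reads per length and do not rank the genes by abundance. In the adult library Irs1 had the highest level per kilobase, 6.41 RPM per kb (6.20 to 6.62), followed by Foxo1 with 4.53, Foxo3 with 3.90, Insr with 3.84, Igf1r with 2.18, Igf1 with 1.20, Akt2 with 0.655, Rptor with 0.647 and Mtor with 0.632. The intervals of Foxo3 and Insr overlapped, as did those of Akt2, Rptor and Mtor. The order in the aged library was Irs1 with 5.50 RPM per kb, Foxo1 with 4.22, Foxo3 with 3.49, Igf1r with 3.05, Insr with 2.81, Mtor with 1.04, Akt2 with 0.895, Igf1 with 0.844 and Rptor with 0.695. Only the neighbours Mtor and Akt2, and Akt2 and Igf1, had overlapping intervals there. Igf1r thus stood below Insr in the adult and above it in the aged order, and Igf1 moved from above Akt2, Rptor and Mtor to a place between Akt2 and Rptor.

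**Figure D2:**
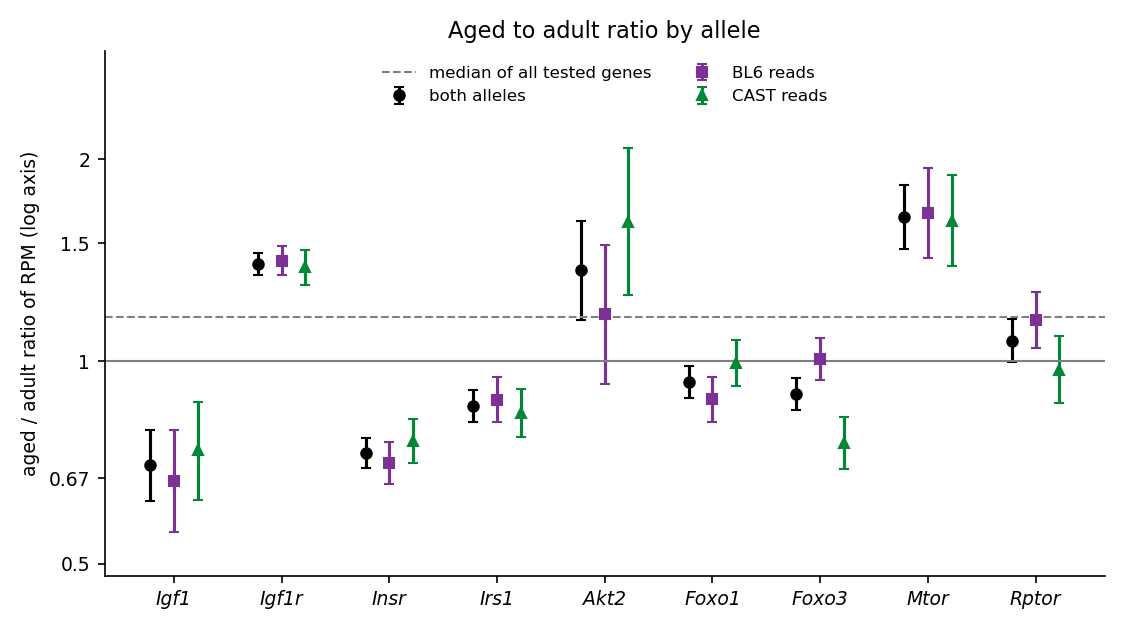
Ratio of aged to adult RPM (log axis) of each signalling gene for the reads of both alleles (black), BL6 reads (purple) and CAST reads (green), with exact 95% intervals, a solid line at 1 and a dashed line at 1.17, the median of all tested genes. Both alleles lie above 1 for Igf1r and Mtor and below 1 for Igf1, Insr and Irs1, and the alleles lie apart for Foxo3.

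BL6 and CAST reads of a gene come from the same nuclei, so they show whether a difference between the ages was shared by both copies. For Igf1r the ratio was 1.41 (1.34 to 1.48) in BL6 reads, from 3475 adult and 2922 aged reads, and 1.38 (1.30 to 1.46) in CAST reads, from 2514 and 2067. Mtor likewise had 1.66 (1.43 to 1.94) in BL6 reads, 335 and 332 reads, and 1.62 (1.39 to 1.89) in CAST reads, 337 and 325 reads. Both alleles of these genes were higher in the aged library.

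Insr had a ratio of 0.706 (0.657 to 0.758) in BL6 reads, 2574 and 1082 reads, and 0.761 (0.706 to 0.820) in CAST reads, 2249 and 1020 reads. Igf1 had 0.664 (0.557 to 0.790) in BL6 reads, 465 and 184 reads, and 0.737 (0.622 to 0.872) in CAST reads, 460 and 202 reads. For Irs1 the ratios were 0.877 (0.811 to 0.947) from 1911 and 998 BL6 reads and 0.839 (0.772 to 0.911) from 1733 and 866 CAST reads. Both intervals thus lay above 1 for 2 of the 9 genes, beside 23.0% of 12390 autosomal genes, and below 1 for 3 of the 9, beside 11.6%. Among the 7068 autosomal genes with at least 100 reads at each age, these shares were 31.2% and 15.1%.

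The remaining genes had an interval off 1 on a single allele in RPM. Relative to the median gene, the intervals of Foxo1 and Foxo3 lay lower on both alleles, so this reading of the FoxO genes depends on the scale. Foxo3 had a ratio of 0.756 (0.692 to 0.826) in CAST reads, from 1619 adult and 729 aged reads, and of 1.01 (0.938 to 1.08) in BL6 reads, from 1992 and 1196. In Foxo1 the BL6 reads were lower, 0.879 (0.813 to 0.948) from 1934 and 1012 reads, and CAST reads had 0.994 (0.918 to 1.08) from 1674 and 991. In Rptor the BL6 reads had 1.15 (1.05 to 1.27) from 1054 and 724 reads, higher in RPM but not relative to the median gene, and CAST reads had 0.972 (0.866 to 1.09) from 817 and 473, lower relative to the median gene. Akt2 had 1.62 (1.26 to 2.08) in CAST reads, from 132 and 127, and 1.18 (0.926 to 1.49) in BL6 reads, from 174 and 122. An interval that holds 1 on 1 allele and not on the other does not by itself separate the alleles, so the allelic ratios are compared next.

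Autosomal genes had a median allelic ratio of 0.534 at 9 weeks and 0.537 at 78 weeks, and these medians were taken as the reference for equal use of both alleles. Igf1r had an excess of BL6 reads at both ages, with an allelic ratio of 0.580 (0.568 to 0.593) at 9 weeks and 0.586 (0.572 to 0.599) at 78 weeks. Rptor was above the median at both ages as well, with 0.563 (0.541 to 0.586) and 0.605 (0.577 to 0.633), and so was Foxo3, with 0.552 (0.535 to 0.568) and 0.621 (0.599 to 0.643). These 3 of 9 genes were above the median at each age, beside 22.6% of autosomal genes at 9 weeks and 22.8% at 78 weeks, or 26.0% and 26.7% of those with at least 100 reads at each age. Without the reads of overlapping loci, described below, Foxo3 was no longer above the median at either age and 2 genes, Igf1r and Rptor, were. In the adult library 0 of 9 genes were below the median, beside 21.9% of autosomal genes and 26.6% of those with at least 100 reads.

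In the aged library 3 of 9 genes were below the median, beside 22.8% of autosomal genes and 27.8% of those with at least 100 reads. They were Foxo1 with 0.505 (0.483 to 0.527), Igf1 with 0.477 (0.426 to 0.528) and Insr with 0.515 (0.493 to 0.536), whose upper bound lay just under the median. Their adult values were, in the same order, 0.536 (0.520 to 0.552), 0.503 (0.470 to 0.535) and 0.534 (0.519 to 0.548), whose intervals hold the median. Irs1 held the median at both ages, with 0.524 (0.508 to 0.541) and 0.535 (0.512 to 0.558), and so did Mtor, with 0.499 (0.460 to 0.537) and 0.505 (0.466 to 0.544). The widest intervals were those of Akt2, 0.569 (0.511 to 0.625) at 9 weeks and 0.490 (0.426 to 0.554) at 78 weeks.

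**Figure D3:**
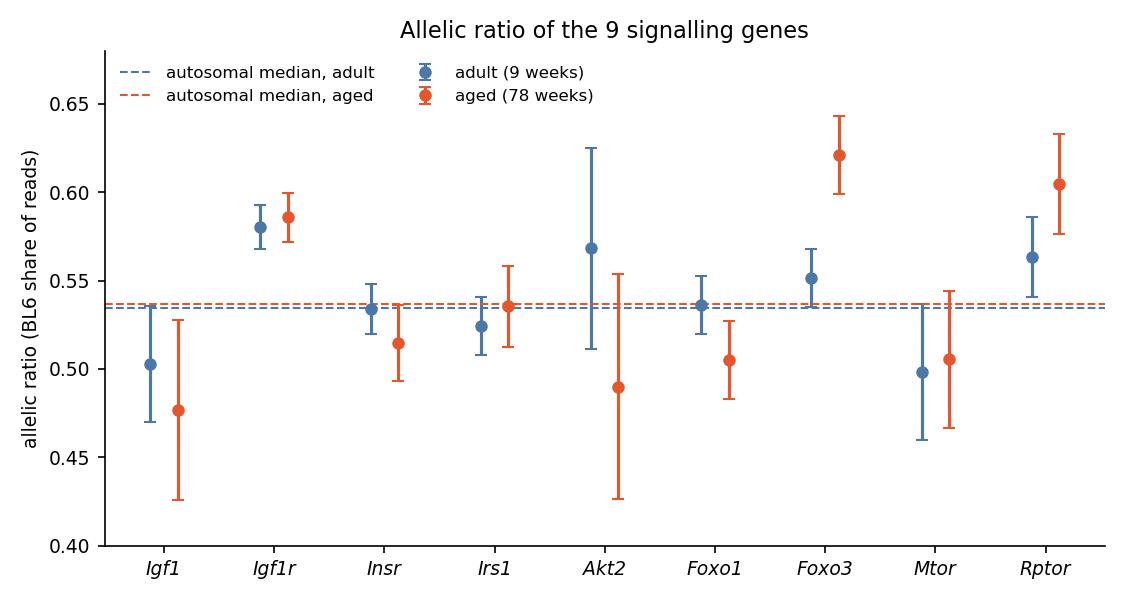
Allelic ratio (BL6 share of SNP-overlapping reads, axis from 0.4) of each signalling gene in the adult (blue) and aged (red) library with exact 95% intervals, and the median of autosomal genes in each library as dashed lines. Foxo3 has separate intervals at the 2 ages, 0.552 at 9 weeks and 0.621 at 78 weeks, and Igf1r lies above both medians at each age.

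Between the ages, the allelic intervals did not overlap for 1 of 9 genes, Foxo3, beside 11.8% of the 12390 autosomal genes and 17.0% of those with at least 100 reads at each age. The change in allelic ratio of Foxo3, aged minus adult, was 0.0697 (0.0424 to 0.0965, Newcombe interval). Rptor changed by 0.0415 (0.00571 to 0.0770) and Foxo1 by -0.0308 (-0.0580 to -0.00352). The interval of the change left out 0 for these 3 of 9 genes, beside 26.5% of autosomal genes and 32.3% of those with at least 100 reads. Akt2, with the fewest reads, had the largest change of the 9 genes by size, -0.0787, and its wide interval (-0.161 to 0.00471) held 0. For Igf1r the change was 0.00546 (-0.0131 to 0.0240), so that a change beyond 0.0240 in either direction lay outside the interval. Changes of this size relative to counting error were thus found in many genes outside the pathway.

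Of the 9 genes, 4 share bases with another locus of the annotation. No source states that reads were counted by strand, and reads of a shared stretch may have been counted for both loci. The subtractions below, chosen after the values were seen, assume that they were. Which locus a read of a shared stretch stems from is not known. The subtracted reads may thus belong to the signalling gene itself. Gm38485, a long noncoding RNA locus (chromosome 10, 42247436 to 42274809), lies wholly within Foxo3 and had 1199 adult and 670 aged reads, equal to 33.2% and 34.8% of those of Foxo3. Its allelic ratio was 0.624 (0.596 to 0.651) at 9 weeks and 0.748 (0.713 to 0.780) at 78 weeks, further from the median than that of Foxo3 at both ages. With the reads of Gm38485 subtracted, Foxo3 had an allelic ratio of 0.516 (0.496 to 0.536) at 9 weeks and 0.554 (0.526 to 0.582) at 78 weeks, and the intervals overlapped and held the autosomal medians. The interval of the change was not computed for these remaining reads, and overlapping intervals do not show that the ratios were equal. The ratio of Foxo3 was then 0.874 (0.815 to 0.936) in all reads, 0.938 (0.854 to 1.03) in BL6 reads and 0.805 (0.727 to 0.891) in CAST reads.

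Rptoros, an antisense long noncoding RNA locus within Rptor (chromosome 11, 119820811 to 119834365), had 96 adult and 50 aged reads. Its allelic ratio was 0.615 (0.510 to 0.712) and 0.380 (0.247 to 0.528), opposite in direction to that of Rptor. Without these reads Rptor had an allelic ratio of 0.561 (0.537 to 0.584) at 9 weeks and 0.615 (0.586 to 0.643) at 78 weeks, and the intervals no longer overlapped. The number of signalling genes with separate allelic intervals was therefore 1 in both countings, but it was Foxo3 with the shared reads and Rptor without them.

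**Figure D4:**
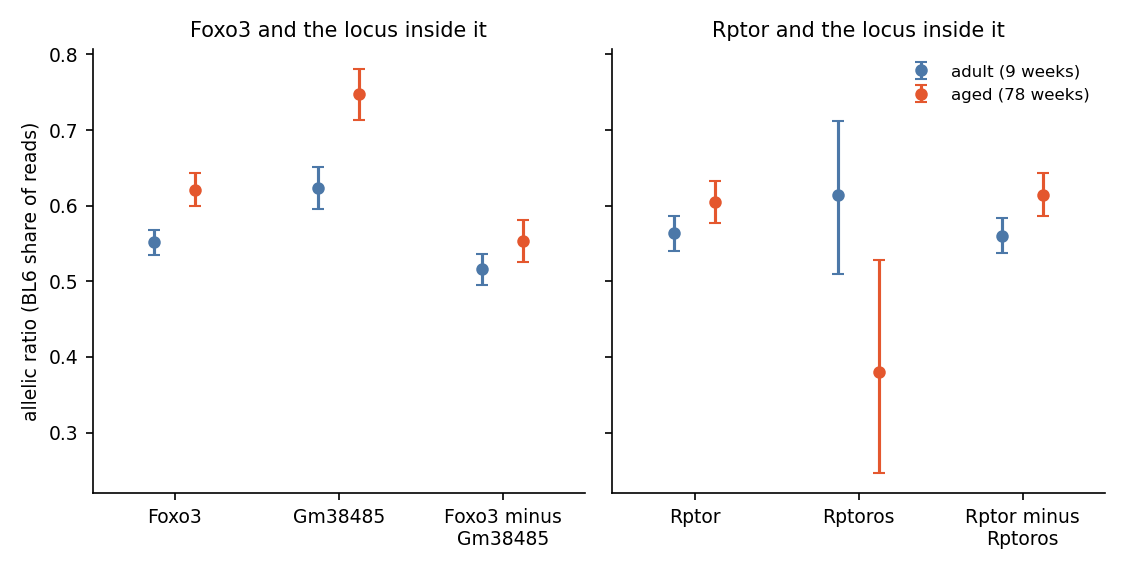
Allelic ratio (BL6 share of reads) with exact 95% intervals in the adult (blue) and aged (red) library for Foxo3 (left) and Rptor (right), for the locus that lies inside each (Gm38485 and Rptoros) and for the gene with the reads of that locus subtracted. Gm38485 is at 0.748 in the aged library, above Foxo3, and Rptoros, with 96 and 50 reads, lies at 0.380 below Rptor.

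The other shared stretches held fewer reads or left the values of the gene nearly as they were. Angptl7, a gene for a secreted angiopoietin-like protein on the opposite strand, lies within an intron of Mtor (chromosome 4, 148495181 to 148500462) and had 47 and 27 reads. Without them the ratio of Mtor was 1.69 (1.51 to 1.89). Igf1os, antisense to Igf1 (chromosome 10, 87826756 to 87864724), shares 6460 of its 37969 bases with Igf1 and had 118 and 57 reads over its whole locus. Even with all of these subtracted, the ratio of Igf1 was 0.684 (0.600 to 0.779).

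Beyond the 9 genes, 116 genes of the pathway were listed by role, of which 110 were found at 1 or both ages and 89 reached 20 reads at each age. The list was drawn up with earlier results of these data known. By the fold of 1.5, 15 of the 89 genes (16.9%) were higher and 12 (13.5%) lower in the aged library, with a median of 0.16 on the log2 scale, beside 28.0% and 11.8% and a median of 0.22 over all genes. Relative to the median gene, 10 were higher (11.2%) and 19 lower (21.3%), beside 18.0% and 18.4% of all genes. The counts by group below are in RPM and rest on few genes each. They are to be read beside the shares of 28.0% higher and 11.8% lower over all genes.

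FoxO target genes had the lowest median of the groups, -0.27 on the log2 scale and -0.49 relative to the median gene. Of 10 such genes, 4 were lower and 0 higher, beside 11.8% and 28.0% of all genes. Pdk4, the kinase that holds back pyruvate oxidation in fasting, was at 183 RPM at 9 weeks and 48.7 RPM at 78 weeks, a ratio of 0.266 (0.234 to 0.302). Fbxo32, the ubiquitin ligase atrogin-1 of muscle atrophy, had 375 and 171 RPM and a ratio of 0.455 (0.424 to 0.488), and its partner in atrophy Trim63 had 0.645. Sesn3, a sestrin, had 202 and 60 reads and a ratio of 0.499 (0.367 to 0.668). The other 6 lay between the folds, among them Klf15 with 1.40 and Cat, which encodes catalase, with 0.752.

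Among the metabolic substrates of AKT, 2 of 6 were higher and 2 lower, beside 28.0% and 11.8% of all genes. Tbc1d4, which encodes AS160 and holds back the glucose transporter GLUT4 until AKT phosphorylates it, was at 1127 RPM at 9 weeks and 380 RPM at 78 weeks, a ratio of 0.337 (0.322 to 0.353). Slc2a4, the gene of GLUT4 itself, had a ratio of 0.665. Gys1, muscle glycogen synthase, had 28.5 and 69.4 RPM and a ratio of 2.43 (2.08 to 2.85), and Gsk3b, a kinase that inhibits glycogen synthase, had 1.73.

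Inhibitors of the receptors and adaptors had 1 of 4 lower, Grb14, which binds and inhibits the insulin receptor. It was at 728 RPM at 9 weeks and 273 RPM at 78 weeks, a ratio of 0.375 (0.355 to 0.396). The imprinted Grb10 and Igf2r were counted in their groups and had no difference past the fold. Of 5 receptor adaptors, 1 was higher, Sh2b2, with 25 and 40 reads and a ratio of 2.69 (1.59 to 4.62). Of the pathway genes named past the fold, Sh2b2, Gys1, Gsk3b, Inpp5d, Igfbp7 and Fnip2 share bases with other loci, so part of their reads may belong to these. The other FoxO factors, Foxo4 with 37 and 18 reads and Foxo6 with 29 and 14, did not reach 20 reads at both ages.

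PI3-kinase subunits and lipid phosphatases had 3 of 9 higher and 0 lower, beside 28.0% and 11.8% of all genes. Pik3cg, a catalytic subunit typical of leukocytes, had 44 and 62 reads and a ratio of 2.37 (1.58 to 3.56). Inpp5d, the lipid phosphatase SHIP1 of blood cells, had 271 and 366 reads and a ratio of 2.27 (1.93 to 2.66), and Pik3r3 had 1.51. Beside these values, macrophage markers had a ratio of 1.64 and lymphocyte markers of 0.474, or 1.01 without Skap1. The 4 tested genes in the group of AKT kinases and their phosphatases all lay between the folds, among them Phlpp1, a phosphatase of AKT, with 0.727.

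**Figure D5:**
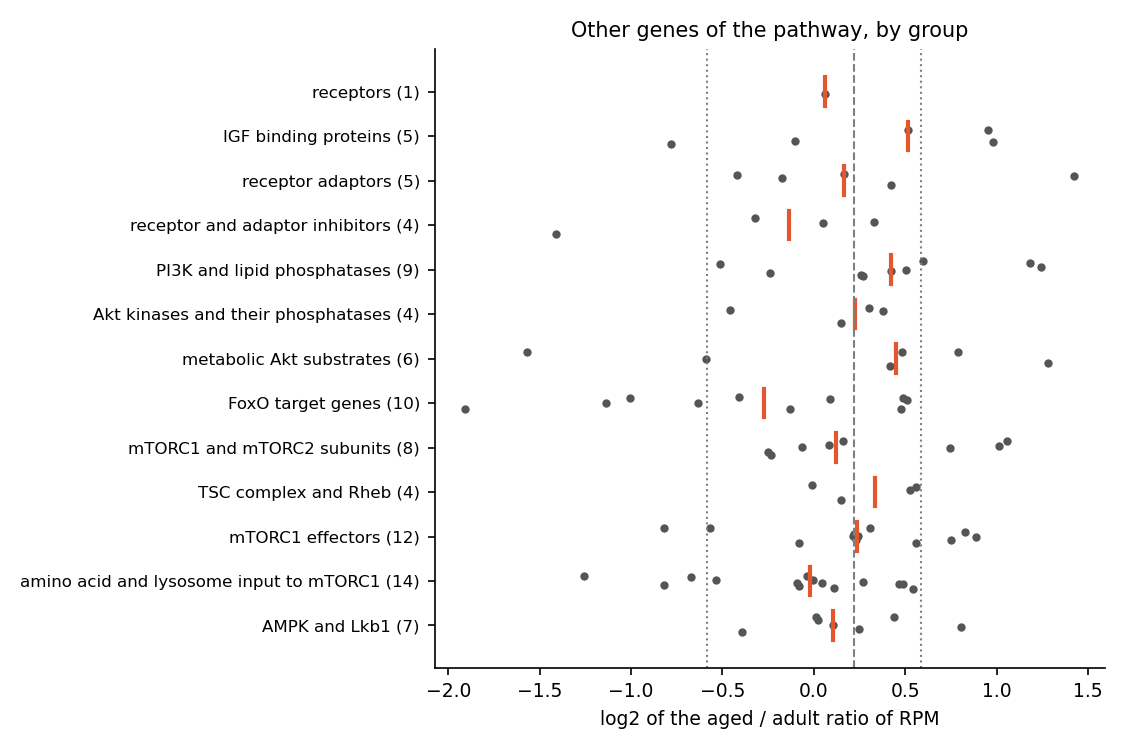
Log2 of the aged to adult ratio of RPM for the 89 tested pathway genes other than the 9 signalling genes, by group (number of genes in parentheses), with 1 point per gene, scattered in height only for visibility. Red lines are group medians, the dashed line is the median of all tested genes (0.22) and dotted lines mark 1.5-fold in each direction. FoxO target genes have the lowest median, -0.27, and IGF binding proteins the highest, 0.52.

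IGF binding proteins, which hold IGF1 in the tissue or release it, had the highest median of the groups, 0.52 on the log2 scale. Of 5 tested, 2 were higher and 1 lower, beside 28.0% and 11.8% of all genes. Igfbp7 had a ratio of 1.97 and Igfbp4 of 1.94, whereas Igfbp5 had 0.582. The other subunits of the mTOR complexes had 3 of 8 higher and 0 lower, beside 28.0% and 11.8% of all genes. The higher included the mTORC2 subunit Prr5, with 25 and 31 reads and a ratio of 2.08 (1.19 to 3.68). Prr5l was also higher, with 187 and 225 reads and 2.02 (1.66 to 2.47). Rictor, the defining subunit of mTORC2, had a ratio of 0.956, and Deptor, an inhibitor of mTOR, had 0.851.

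Of 12 mTORC1 effectors, 3 were higher and 1 lower, beside 28.0% and 11.8% of all genes. The higher were Rps6kb2 with 1.85, Eif4ebp2 with 1.77 and Eif4b with 1.69. The lower was Eif4ebp1, a repressor of translation, with 0.567 (0.448 to 0.714). In the amino acid and lysosome input to mTORC1, 0 of 14 were higher and 3 lower, beside 28.0% and 11.8% of all genes. Sesn1, a sestrin that restrains mTORC1 when leucine is scarce, had 496 RPM at 9 weeks and 207 RPM at 78 weeks, a ratio of 0.418 (0.392 to 0.445). Fnip2 had 0.567 and the lysosomal arginine sensor Slc38a9 had 0.628. The 4 tested genes of the TSC complex and Rheb all lay between the folds, with Tsc1 at 1.47, and of 7 genes of AMPK and its kinase Lkb1 1 was higher, Prkag1 with 1.75.

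Allelic intervals were separate between the ages for 16 of the 89 genes (18.0%), beside 11.8% of autosomal genes and 17.0% of those with at least 100 reads at each age. The largest changes by size were those of Pik3cd, from 0.328 (0.270 to 0.390) in the adult to 0.573 (0.497 to 0.647) in the aged library, and Eif4ebp1, from 0.399 (0.342 to 0.457) to 0.630 (0.528 to 0.724). Klf15 went the other way, from 0.494 (0.457 to 0.531) to 0.300 (0.264 to 0.338), with 356 and 181 BL6 reads and 365 and 422 CAST reads. Igfbp6 changed from 0.630 to 0.804, Rragd from 0.514 to 0.353 and Cat from 0.543 to 0.422. These genes were picked as the largest changes of the 16, so the smaller change of Foxo3, 0.0697, does not rank it among the pathway genes. The allelic intervals of Foxo3 overlapped once the reads of Gm38485 were subtracted.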

How the data were processed

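Nuclei of 1 adult and 1 aged heart were measured by single-nucleus RNA-seq. The authors aligned reads with Cell Ranger (7.1.0), split the alignments by nucleus with sinto, pooled the nuclei with a BL6 active X chromosome of each heart and ran Allelome.PRO2 with the GRCm38/mm10 RefSeq annotation. They deposited raw counts of SNP-overlapping reads for each gene and allele and the allelic ratio as a fraction rounded to 2 decimals by the authors. The deposited score was not used. Correction for background RNA is described for the expression matrices only. Doublets were removed from those matrices with DoubletFinder, and no source used here states whether they were also left out of the pooled nuclei. The name of the aged file gives another age than its labels, which were used.

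Groups are the ages of the labels. RPM, ratios, allelic ratios and reads per kilobase of locus were computed from the counts with NumPy 2.4.6, SciPy 1.17.1 and pandas 2.3.3. Ratios have exact conditional binomial intervals, levels exact Poisson intervals, allelic ratios Clopper-Pearson intervals, changes in allelic ratio Newcombe intervals and ratios of gene pairs conditional odds ratio intervals, all at 95%. At least 20 reads at each age were required for the shares over all genes. With 1 library per age no test was made. Starts are counted from 1. Strands and exons are from GENCODE M21. The functions were tested on simulated data.

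Named genes comprise the 9 signalling genes, up to 6 pathway genes in each direction past 1.5-fold whose interval leaves out 1, up to 6 with separate allelic intervals, loci that overlap a signalling gene and the most abundant marker of each list. Other pathway genes and other markers named, among them Cd3e and Cd8a, were chosen after their values were seen. The signalling genes and lists were chosen with earlier results of these data known. Other scales, folds, read minimums, confidence levels, references and overlapping loci were tried as alternatives. Subtraction of overlapping loci, the pair ratios and marker sums without single genes were added after the data were seen.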

Additional observations from a re-analysis of the deposited data

How the results depend on the processing

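No paired analysis was possible because each age has 1 library, and for the same reason no replicate could be left out. Scaling moved the median ratio of all genes from 1.17 to 1.11 without the 100 genes with most reads and to 1 with the median ratio. The number of signalling genes past 1.5-fold, 1 higher and 0 lower, became 1 and 1 without the 100 genes with most reads (Igf1 at 0.666), 0 and 2 with the median ratio, 3 and 2 at the lower fold tried, 0 and 0 at 2-fold and 0 higher without overlapping loci, which leaves out Mtor. Relative to the median gene Rptor turned from 1.07 to 0.922, whereas the other 8 genes kept their direction under each of the 3 other scales tried. Among the pathway genes, 15 higher and 12 lower became 33 and 20 at the lower fold tried and 6 and 6 at 2-fold, 24 were higher with no read minimum and 9 without overlapping loci, and with the median ratio 19 were lower and the median log2 ratio was -0.0616. Signalling genes above the autosomal median in the adult library numbered 3, against 7 with 0.5 as the reference, 1 with 99% intervals 0 by a distance of 0.05 and 2 with the reads of overlapping loci subtracted, which leaves out Foxo3. Genes below it in the aged library numbered 3, against 0 with 0.5 as the reference, 1 with 99% intervals (Foxo1) and 1 by a distance of 0.05 (Igf1). The count of separate allelic intervals was 1 under every alternative run. It was Foxo3 except with the reads of overlapping loci subtracted, when it was Rptor. At 249 to 5989 reads per gene and library, the depth limits Akt2 and Igf1 most.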
